A study of Mus musculus with 2 samples.

Results

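A set of 10 miRNA genes with roles in neuronal differentiation and at synapses were described in the neural tube of mouse embryos: Mir137, Mir153, Mir128-1, Mir128-2, Mir138-1, Mir138-2, Mir129-1, Mir129-2, Mir132 and Mir212. They were taken by symbol from the GENCODE M21 annotation, with earlier results of these data known, and all 10 were found among 1973 genes counted. The tissue came from strain B6NCrl at 12.5 days of embryonic development, and 2 biological replicates were sequenced as small RNA libraries. Replicate 1 was a pool of neural tubes from 120 embryos and replicate 2 a pool from 88, with both sexes in each. No treatment, mutant or second tissue was part of the design, so the comparisons are those between genes within a library and those between the replicate libraries.

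A miRNA gene gives a transcript that folds into a hairpin, from which the enzymes Drosha and Dicer cut a short duplex with a 5′ arm and a 3′ arm. One arm is loaded into an Argonaute protein and pairs, mainly through its seed near the 5′ end, with messenger RNAs that are then repressed. Mir137 and the Mir128 genes are known for promoting neuronal differentiation, Mir153 and the Mir138 and Mir129 genes for acting on synaptic vesicle release, dendritic spines and excitability, and Mir132 and Mir212 for being transcribed upon neuronal activity through the factor CREB. Many of these functions are best known from postnatal brain, and the neural tube at this stage holds dividing progenitors beside the first neurons.

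The sequences below are shown because they decide which reads can be assigned to a single member. They are the mature arms best known as functional, from RefSeq on GRCm38.p6, 5′ to 3′, with the seed (bases 2 to 8) in capitals.
miR-137-3p: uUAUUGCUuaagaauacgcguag
miR-153-3p: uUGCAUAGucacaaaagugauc
miR-128-3p: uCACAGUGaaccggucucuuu
miR-138-5p: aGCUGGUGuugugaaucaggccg
miR-129-5p: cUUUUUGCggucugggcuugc
miR-132-3p: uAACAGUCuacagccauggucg
miR-212-3p: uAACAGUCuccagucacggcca

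The arms of Mir132 and Mir212 carry the same seed, and no other mature arm in the RefSeq table has it. Counted from 1 at the 5′ end of miR-132-3p, the 2 arms were identical at 17 of 22 positions and differed by A10C, C14U, U17C, U20C and G22A, all outside the seed. The seeds of miR-137-3p, miR-153-3p, miR-128-3p, miR-138-5p and miR-129-5p were each found in no differently named mature arm of that table. All 10 hairpins matched by symbol and were the same in RefSeq and in GENCODE M21.

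The mature sequences of miR-128-3p, miR-138-5p and miR-129-5p are each encoded by a pair of members. The stretches below show how far the identity reaches within the annotated hairpins, with the bases shared by both members of a pair in capitals. The annotated Mir138-2 hairpin starts with the shared run, so identity further 5′ was not examined in that pair.
Mir128-1: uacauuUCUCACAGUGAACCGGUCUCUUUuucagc
Mir128-2: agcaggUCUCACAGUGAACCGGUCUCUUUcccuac
Mir138-1: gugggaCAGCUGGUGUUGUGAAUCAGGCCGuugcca
Mir138-2: CAGCUGGUGUUGUGAAUCAGGCCGacgagc
Mir129-1: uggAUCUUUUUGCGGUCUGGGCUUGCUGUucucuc
Mir129-2: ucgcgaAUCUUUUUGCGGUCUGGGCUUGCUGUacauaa

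The shared run was 23 bases long in the Mir128 pair and 24 in the Mir138 pair, and in both it ended with the last base of the mature arm, so that the next base of the hairpin differs between the copies. In the Mir129 pair the run was 26 bases long and went on for 3 bases past the mature arm. This pair also shared a run of 21 bases on the other side of the hairpin, which covers most of miR-129-2-3p. In the Mir128 and Mir138 pairs no other run reached 15 bases, so their opposite arms differ in sequence. Mir137, Mir153, Mir132 and Mir212 shared no run of 20 bases with any other counted gene matched to GENCODE M21. Among these genes the longest run of Mir132 with another hairpin was 10 bases, with Mir212. Counted genes without a match were not searched. The deposited counts list reads that map to several places in a separate row, and the rule that put reads there is not given in the sources. If that row takes every such read, the values of the 6 paired members hold only reads placed at 1 copy. In either case they do not measure how much miR-128-3p, miR-138-5p or miR-129-5p the tissue held.

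**Figure D1:**
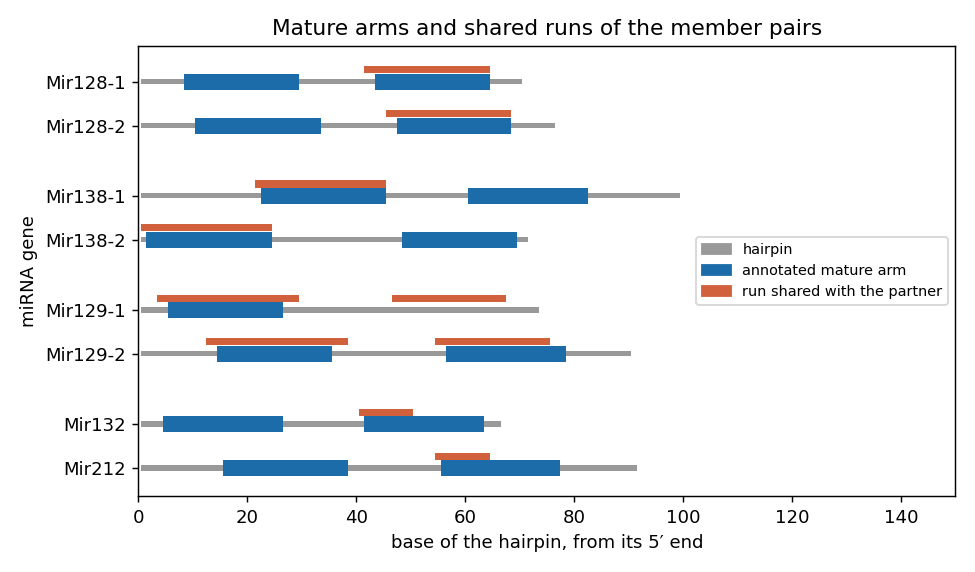
Hairpins of the 4 member pairs drawn to scale along the base position from the 5′ end, with grey lines for the hairpin, blue bars for mature arms annotated in RefSeq and orange bars for runs of at least 15 bases shared with the partner (for Mir132 and Mir212, the longest shared run). The shared run covers 1 whole mature arm in the Mir128, Mir138 and Mir129 pairs, while Mir132 and Mir212 share 10 bases.

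Own-strand reads in miRNA genes numbered 4802411 in replicate 1 and 4422853 in replicate 2. Levels are given as reads per 1000000 of these reads (CPM), in which a count of 0 would allow up to 0.625 and 0.678 CPM (3 counts). Reads mapping to several places numbered 71.8 and 61.0 for every 100 own-strand gene reads. Intervals are exact binomial (Clopper-Pearson, 95%) and cover counting error only, since reads copied by PCR without molecular identifiers do not each stand for a molecule. Mature arms of the members are 21 to 23 bases long, so no correction for length was made. Capture efficiency per sequence is unknown here, so a ratio between genes compares reads rather than molecules. In whole tissue, fewer cells of a type and less RNA per cell cannot be told apart.

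All 10 members were detected, defined as 10 or more reads in each library, while 18.8% of the 1973 genes counted were. Their summed share of the gene reads was 0.440% (95% interval 0.435 to 0.446) for replicate 1 and 0.495% (0.488 to 0.501) for replicate 2. Mir137 alone made up 57.7% and 62.2% of the members' reads, and Mir137 with Mir153 76.0% and 78.5%. The 6 members with a shared mature arm accounted for 0.0764% ± 0.00324 (SD, n = 2) of gene reads, and the 4 others for 0.391% ± 0.0352. The median of the members' mean levels was 169.2 CPM and that of all 371 detected genes 114.7 CPM. Of counted genes matched to GENCODE M21, 79 of the 907 that share 20 bases with another counted hairpin were detected, against 292 of the 987 that do not.

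**Figure D2:**
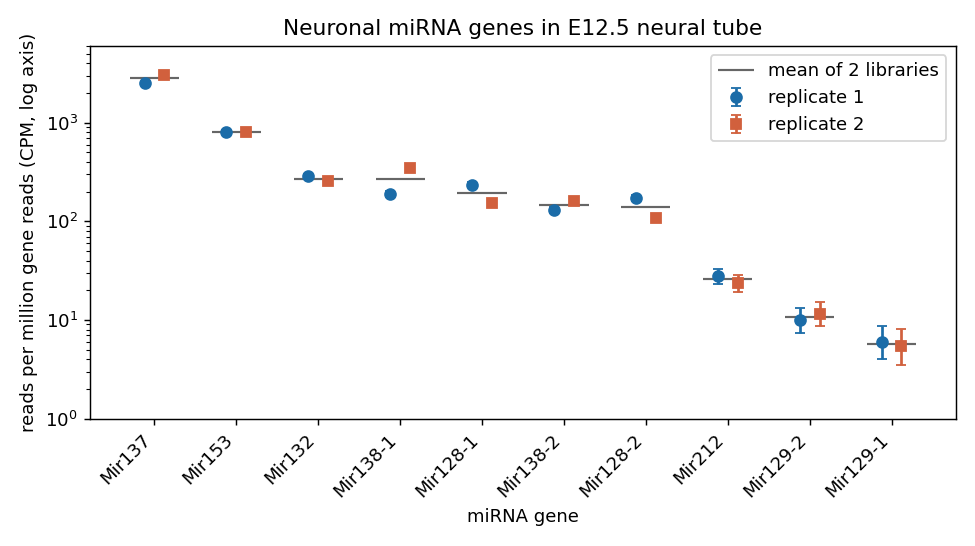
Levels of the 10 members in each library, as reads per 1000000 gene reads on a log axis, with circles for replicate 1, squares for replicate 2, vertical bars for 95% counting intervals and grey lines for the mean. Mir137 and Mir153 stand above the other members in both libraries, and the Mir129 genes are lowest.

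Mir137, which restrains neural progenitor proliferation and promotes differentiation, was the most abundant member. The gene lies on chromosome 3 (118433857 to 118433929, plus strand, mm10), where M21 places it in an exon of the noncoding transcript Gm26871, 128.2 kb from the nearest coding gene, Dpyd. It had 12203 reads in replicate 1 and 13609 in replicate 2, or 2541 CPM (95% interval 2496 to 2586) and 3077 CPM (3026 to 3129). Replicate 2 was the higher one, and the counting intervals did not overlap. The mean of 2809 ± 379.0 CPM ranked Mir137 57th of 1973 genes, above 84.6% of the detected genes. Mir1983 (2900 ± 459.6 CPM) stood next above it and Mir872 (2719 ± 69.9 CPM) next below, and both lay within the spread of Mir137.

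Mir153, which represses transcripts of proteins that act in synaptic vesicle release, such as Snap25, followed. It lies on chromosome 12 (117250817 to 117250885, plus strand) in an intron of Ptprn2, the gene of a dense-core vesicle protein. Its 3880 and 3566 reads gave 807.9 CPM (782.7 to 833.7) in replicate 1 and 806.3 CPM (780.0 to 833.2) in replicate 2. The libraries were nearly equal for this gene, and the SD of 1.17 CPM was well under the counting error of either library. The neighbours in the order of abundance were Mir433 above (827.3 ± 85.4 CPM) and Mir674 below (795.1 ± 73.4 CPM), with ranges that include the level of Mir153. Reads of Mir137 outnumbered those of Mir153 by 3.15 times in replicate 1 (3.03 to 3.26) and 3.82 times in replicate 2 (3.68 to 3.96), a mean of 3.48 ± 0.475.

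Mir132 and Mir212, the activity-regulated pair that promotes dendrite growth, lie 203 bases apart on chromosome 11, both on the plus strand and in an intron of the noncoding transcript 1700016P03Rik. Mir212 is at 75173388 to 75173478 and Mir132 at 75173682 to 75173747. Mir132 had 1377 and 1125 reads, or 286.7 CPM (271.8 to 302.3) in replicate 1 and 254.4 CPM (239.7 to 269.7) in replicate 2. Mir212 had 133 and 105 reads, or 27.7 CPM (23.2 to 32.8) and 23.7 CPM (19.4 to 28.7). Both genes were slightly higher in replicate 1. The counting intervals of the libraries overlapped for Mir212 and not for Mir132.

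Within each library Mir132 far outnumbered its neighbour, although the genes lie side by side. The ratio was 10.4 in replicate 1 (8.66 to 12.5) and 10.7 in replicate 2 (8.77 to 13.2), a mean of 10.5 ± 0.255. Of the 5 ratios computed between members, it differed least between the libraries, by 1.035-fold, closely followed by the Mir128 pair at 1.045-fold. Both values lay well within the counting intervals of the other library, so this closeness does not show how stable the ratio is. Unequal reads were common among neighbours. The 64 pairs of adjacent detected genes on 1 strand under 1 kb apart differed by a median of 7.27-fold (quartiles 2.88 and 25.9). Of them, 25 differed by more than Mir132 and Mir212. Some of the 64 pairs hold a gene that shares its mature sequence with another gene, such as Mir19b-1 or Mir181b-1. Reads of these genes may be listed as mapping to several places, and the comparison was not made without such pairs. Mir132 and Mir212 shared no run of 20 bases with a hairpin searched, but copies outside annotated hairpins were not looked for. Reads of all genes with the seed that miR-132-3p and miR-212-3p share came to 314.4 and 278.1 CPM. These sums hold both arms of each hairpin, and the 5′ arms carry other seeds.

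The Mir128 genes lie in introns of coding genes on their own strand, Mir128-1 in R3hdm1 on chromosome 1 (128202361 to 128202430, plus strand) and Mir128-2 in Arpp21 on chromosome 9 (112118636 to 112118711, minus strand). Arpp21 encodes a phosphoprotein regulated by cyclic AMP in neurons. Mir128-1 had 1125 reads in replicate 1 and 673 in replicate 2, or 234.3 CPM (220.8 to 248.4) and 152.2 CPM (140.9 to 164.1). Mir128-2 had 828 and 474 reads, or 172.4 CPM (160.9 to 184.6) and 107.2 CPM (97.7 to 117.3). Both copies were higher in replicate 1, with counting intervals that did not overlap. The ratio of Mir128-1 to Mir128-2 was nevertheless alike in the libraries, 1.36 (1.24 to 1.49) and 1.42 (1.26 to 1.60), a mean of 1.39 ± 0.0432. The 5′ arms of this pair differ in sequence but carry the same seed, which no other arm in the table has.
miR-128-1-5p: cGGGGCCGuagcacugucuga
miR-128-2-5p: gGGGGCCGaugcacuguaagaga

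The Mir138 genes, whose product limits the size of dendritic spines by repressing the depalmitoylating enzyme gene Lypla1, went the other way. Mir138-1 lies on chromosome 9 (122682876 to 122682974, plus strand) in an exon of the transcribed pseudogene Gm47135. It had 904 reads in replicate 1 and 1551 in replicate 2, or 188.2 CPM (176.2 to 200.9) and 350.7 CPM (333.4 to 368.6). Mir138-2 lies on chromosome 8 (94324311 to 94324381, plus strand) in an exon of the lincRNA C78859, 4.82 kb from the coding gene Slc12a3. Its 626 and 708 reads gave 130.4 CPM (120.3 to 141.0) and 160.1 CPM (148.5 to 172.3). Both copies were higher in replicate 2, Mir138-1 by more than Mir138-2. Their ratio was 1.44 in replicate 1 (1.30 to 1.60) and 2.19 in replicate 2 (2.00 to 2.40), so that the intervals of this ratio did not overlap, and its mean was 1.82 ± 0.528.

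The Mir129 genes, which are tied to the scaling of synapses and repress the potassium channel gene Kcna1, had the fewest reads. Mir129-2 lies on chromosome 2 (94241364 to 94241453, minus strand) in an intron of the lincRNA Mir670hg, with the gene Mir129b annotated on the opposite strand. It had 48 and 51 reads, or 9.99 CPM (7.37 to 13.3) and 11.5 CPM (8.59 to 15.2). Mir129-1, on chromosome 6 (29022619 to 29022691, plus strand) in an exon of the lincRNA Gm3294, had 29 and 24 reads, or 6.04 CPM (4.04 to 8.67) and 5.43 CPM (3.48 to 8.07). For both genes the counting intervals of the libraries overlapped. Mir129-2 outnumbered Mir129-1 by 1.66 times (1.02 to 2.72) in replicate 1 and 2.13 times (1.28 to 3.61) in replicate 2, intervals whose width shows how little these counts can resolve.

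**Figure D3:**
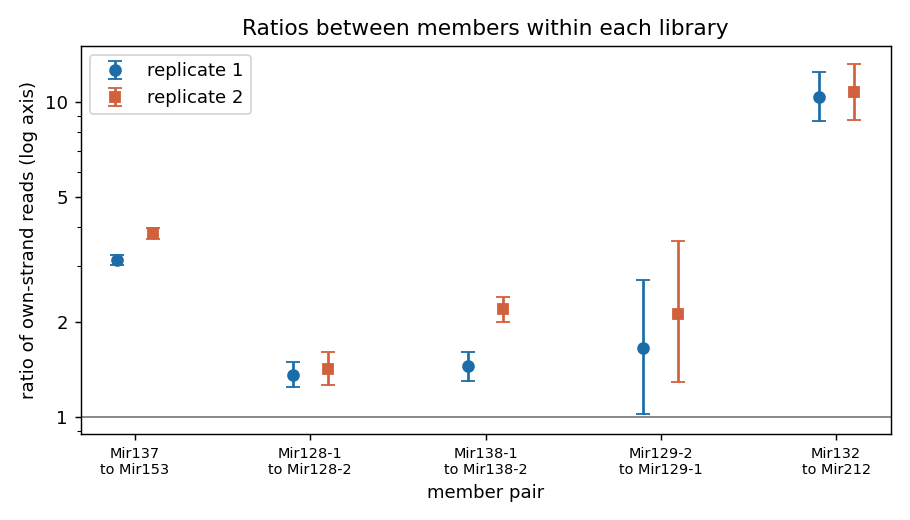
Ratios of own-strand reads between members within each library, on a log axis, with circles for replicate 1, squares for replicate 2 and vertical bars for 95% counting intervals. Mir132 to Mir212 is near 10.5 in both libraries, while Mir138-1 to Mir138-2 is 1.44 in one and 2.19 in the other.

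The 3 paralog pairs can be set beside other miRNAs of the same kind. RefSeq held 37 mature sequences that lie in exactly 2 counted hairpins, and for 19 of them both genes were detected. Among these 19, the copies differed by a median of 2.96-fold in mean CPM, with a range of 1.38 to 69.6. The smallest of these differences was that of the Mir128 genes. By the summed gene counts of both copies, the Mir138 genes (414.7 ± 135.9 CPM) stood 7th, the Mir128 genes (333.0 ± 104.2 CPM) 10th and the Mir129 genes (16.5 ± 0.653 CPM) 18th of the 19. These sums hold reads of both arms of each hairpin and are not levels of the shared mature arm.

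Ordered by mean level, the members fell into steps. Mir137 exceeded Mir153 and Mir153 exceeded Mir132 in both libraries without overlap. Mir132 (270.5 ± 22.9 CPM), Mir138-1 (269.5 ± 114.9 CPM), Mir128-1 (193.2 ± 58.0 CPM), Mir138-2 (145.2 ± 21.02 CPM) and Mir128-2 (139.8 ± 46.1 CPM) formed a middle group in which every neighbouring pair changed order between the libraries. Mir132 ranked 145th of all genes, between Mir16-2 (275.2 ± 28.4 CPM) and Mir138-1. Mir212 (25.7 ± 2.80 CPM), Mir129-2 (10.8 ± 1.09 CPM) and Mir129-1 (5.73 ± 0.433 CPM) lay below the middle group in both libraries, in that order. For the order of 2 genes over 2 libraries, a 2-sided exact permutation test cannot go below p = 0.5, and no test of order was made.

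**Figure D4:**
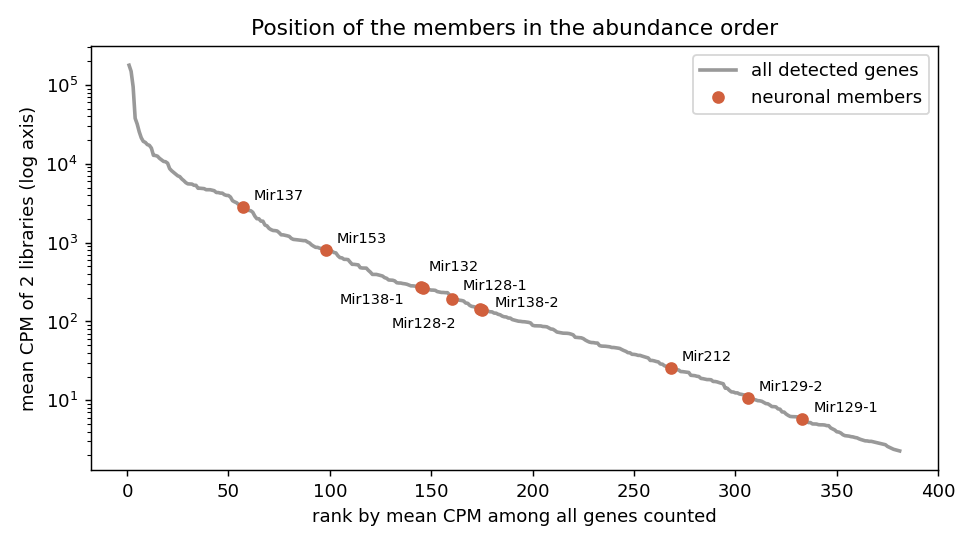
Mean CPM on a log axis against rank among all genes counted, with a grey line for the 371 detected genes and orange points for the 10 members. Mir137 is at rank 57, 5 members lie between ranks 145 and 175, and Mir129-1 is at rank 333.

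The replicate libraries were compared after TMM scaling, which sets the typical gene equal between libraries. Of the 10 members, 2 were at least 1.5-fold apart, Mir138-1 and Mir128-2, while 11.3% of the 371 detected genes were. Mir138-1 was 1.91-fold higher in replicate 2 (counting interval 1.76 to 2.08), a difference larger than that of 96.2% of detected genes. In that direction 2.70% of detected genes reached 1.5-fold. Mir128-2 was 1.57-fold higher in replicate 1 (1.40 to 1.76), a direction in which 8.63% of detected genes reached 1.5-fold. Mir128-1 was 1.498-fold higher in replicate 1 (1.36 to 1.65), just under that limit, and passed it when library totals replaced TMM (log2 ratio 0.62 in place of 0.58). None of the members reached 2-fold, against 2.96% of detected genes.

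The other 7 members lay closer to equality. Mir137 and Mir138-2 were 1.24-fold and 1.26-fold higher in replicate 2, and Mir153 differed by a log2 ratio of -0.04. The median absolute log2 ratio was 0.28 over the members and 0.24 over all detected genes. The common coefficient of variation over detected genes was 16.3% (edgeR, intercept only), equivalent on the log2 scale to an SD of 0.33 between libraries. The log2 ratio of Mir138-1 was -0.94, and those of Mir128-2 and Mir128-1 were 0.65 and 0.58. Both Mir128 copies were thus higher in replicate 1 and both Mir138 copies in replicate 2, while Mir129-1 (log2 ratio 0.12) and Mir129-2 (-0.25) lay on opposite sides of equality.

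**Figure D5:**
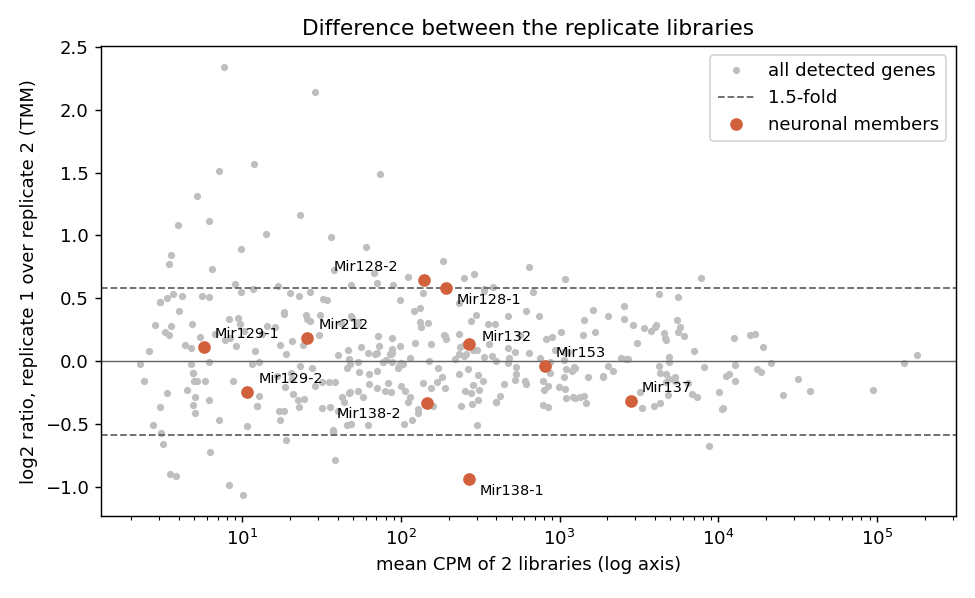
Log2 ratio of replicate 1 over replicate 2 after TMM scaling against mean CPM on a log axis, with grey points for 371 detected genes, orange points for the 10 members and dashed lines at 1.5-fold. Mir138-1 lies below the lower line at -0.94, Mir128-2 above the upper line at 0.65, and the other members between the lines.

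Reads on the opposite strand were nearly absent at the members. Mir129-2 had 2 such reads in replicate 1, Mir137 and Mir212 had 1 each in replicate 2, and the other counts were 0, none above the limit of 3 counts. Over all genes the opposite strand held 1.72% and 1.48% of gene reads.

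A list of 24 other neuronal miRNA genes, of which 23 matched a counted gene, was measured beside the members. Of these, 21 were detected, with a median of 149.1 CPM. The most abundant were Mir135b (2612 ± 67.2 CPM), Mir379 (2013 ± 3.70 CPM), Mir708 (1255 ± 155.5 CPM) and Mir598 (1200 ± 24.0 CPM). Of these, Mir708 shares 20 bases with 1 other counted gene, Gm23134. Mir137 exceeded all 4 in mean level, though it lay below Mir135b in replicate 1 (2541 against 2660 CPM). Between the libraries 1 of the 21 was at least 1.5-fold apart, Mir9-2, higher in replicate 1 with 26 against 11 reads, and their median log2 ratio was -0.08.

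The labelled tissue was checked with miRNA markers. The neural markers Mir9-2, Mir9-3 and the 3 Mir124a genes came to 287.6 and 312.7 CPM, with 3 of 5 detected and none at 0. Most of this was Mir9-3 (268.2 and 298.0 CPM). The means of the others were low, at 9.71 CPM for Mir124a-2, 3.95 for Mir9-2, 1.85 for Mir124a-1 and 1.52 for Mir124a-3. Each of the 5 neural markers shares 20 bases with another copy, so the limit given for the paired members holds for these values too. Genes of other cells were present, and endothelial Mir126a held 2.03% and 1.83% of gene reads. The 7 mesenchyme and smooth muscle genes held 1.67% and 1.55%, and the 3 sensory ganglion genes 1.91% and 2.61%. The epithelial genes held 0.204% and 0.210%, and the striated muscle genes 0.0825% and 0.0479%, most of it Mir206 (811.1 and 469.8 CPM). The leukocyte genes held 0.0349% and 0.0303% and the erythroid genes 0.0112% and 0.0102%. Neural Mir9-1, striated muscle Mir1a-2 and leukocyte Mir142 were listed as markers but matched no counted gene, so these sums leave them out. Mir133a-1 and Mir133a-2 were at 0, but they share 20 bases with each other and with Mir133b. The striated muscle marker Mir1a-1 was nearly absent too, with 1 read in replicate 1 and 0 in replicate 2. It shares no run of 20 bases with a hairpin searched. The Mir199 genes share 20 bases too, so the same limit holds for the Mir133 and Mir199 genes. Among markers of other cells, 1.5-fold was reached by Mir206 (log2 ratio 0.75) and Mir486 (0.60), higher in replicate 1. It was also reached by Mir182 (-0.67), higher in replicate 2. The part of these cells in the members' levels was not tested.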

How the data were processed

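For each library the deposited values are raw counts of reads per miRNA gene, which the authors made on mm10 with annotation M4 per the descriptions deposited with the files. For the aligner, counter and trimming, the sources used here give no name. The column of own-strand reads was used, and the 4 rows that name no gene were left out of totals. The count of a gene holds both arms of its hairpin. Symbols and coordinates came from GENCODE M21 (same assembly, 1894 of 1973 identifiers matched) and sequences from RefSeq (GRCm38.p6). The genome sequence was not used, so copies outside annotated hairpins were not searched.

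The members, lists and rules were chosen with earlier results of these data known. All 10 members are named, with the neighbours in rank of the 3 highest and the 4 highest of the other neuronal list. Ratios are given as the more abundant member over the less abundant. Because there is 1 group, edgeR's quasi-likelihood test has no contrast and no p-values were computed. TMM and the coefficient of variation came from edgeR 4.0.16 (R 4.3.3), alternative size factors from DESeq2 1.42.0. Python 3.11.15, numpy 2.4.6, pandas 2.3.3, scipy 1.17.1 and matplotlib 3.10.9 were used. The scaling was tested on simulated data.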

Additional observations from a re-analysis of the deposited data

How the results depend on the processing

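The members held 0.282% of reads with multiply mapping reads added to the denominator, 0.695% without Mir10a and Mir10b, the 2 most abundant genes, and 0.391% when limited to members in a single gene. At 2-fold, 0 members and 11 genes were apart between libraries. Of all genes, 606 were detected with at least 1 read in both libraries in place of 371. In place of 42 genes at least 1.5-fold apart, 301 were with at least 1 read in either library (168 higher in replicate 1 and 133 in replicate 2) and 24 with at least 100 reads in both (21 and 3), against 32 and 10 as reported. Members detected numbered 8 at 100 reads, which leaves out the Mir129 genes. Members at least 1.5-fold apart numbered 3 with library totals and with at least 100 reads, since Mir128-1 was added, and 2 with DESeq2 size factors, both-strand reads and at least 1 read in either library. No alternative reversed a ratio between members or the direction of Mir138-1 (log2 ratio -0.96 to -0.90), Mir128-1 (0.56 to 0.62) or Mir128-2 (0.62 to 0.69). A change of scaling moves the log2 ratio of every gene by the same amount and cancels in ratios within a library. Opposite-strand reads were nearly absent at the members. These alternatives could therefore hardly have reversed such values. Mir153 ranged from -0.06 to 0.01 and so has no direction. The number of members sharing a run stayed at 6 with 18 bases. No paired analysis was possible because there is a single group. Depth limits the Mir129 genes and Mir212 most.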
